A study of Mus musculus with 21 samples.

Results

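Interferon-induced genes were followed through brain RNA of mice with Pdcd10 deleted by a recombinase targeted to brain endothelium, a model of cerebral cavernous malformation. The group holds 34 genes, chosen by symbol as classical interferon targets, receptor chains and interferon regulatory factors, out of 55416 gene IDs in the table. The choice was made with earlier results of these data known. Member and list shares and medians set beside all genes are therefore descriptive only. All 34 were found and all 34 passed the filter on low counts, which kept 19854 genes.

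The mice were floxed for Pdcd10 and carried the astrocyte reporter Aldh1l1-EGFP/Rpl10a, which puts a fluorescent tag on ribosomes; this background was shared by controls and knockouts. The knockouts also carried Slco1c1-iCreERT2, an inducible recombinase driven by a promoter active in brain endothelium, and the deletion was induced with 50 µg of 4-hydroxy-tamoxifen on postnatal day 1. The controls were littermates without the recombinase; the series' text also mentions recombinase carriers that were not injected as controls, without saying whether any library came from them. Whether the controls without the recombinase received 4-hydroxy-tamoxifen is not clear from the text, so in each knockout comparison genotype and injection cannot be told apart. Brains were taken at postnatal day 57, after breathing 21% oxygen (normoxia) or 12% oxygen for 7 days (hypoxia). There were 4 control and 4 knockout libraries in normoxia, 4 control (replicates 3 to 6) and 7 knockout libraries in hypoxia, all with the tag male. The series' text describes affinity purification of tagged astrocyte ribosomes, whereas the extraction text of the samples describes homogenised brain, so the material is called brain RNA here.

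Interferons are cytokines, and those of type I are released by cells on sensing viral nucleic acid. Type I interferons bind a receptor that includes the Ifnar1 chain and act through ISGF3, a complex that includes Stat2 and Irf9 and binds the interferon-stimulated response element (ISRE); interferon gamma binds a receptor that includes Ifngr1 and acts at GAS sites and through Irf1. The induced genes encode inhibitors of viral RNA and replication, cytosolic sensors, the ubiquitin-like protein Isg15 and families of GTPases, and in brain both astrocytes and microglia can express them.

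The libraries held 45399320 to 65261791 counts. The summed level of 10 astrocyte markers was 26938 to 52929 CPM (counts scaled to a common library size with TMM), and Pdcd10 was 6.98 to 12.2 CPM in the 11 knockout libraries and 19.6 to 30.7 CPM in the 8 control libraries. Summed endothelial markers were 12.9 to 30.9 CPM in normoxic controls, and the cell type in which Pdcd10 RNA fell was not tested. Microglial RNA moved with genotype: the summed level of 10 microglial markers was 52.9 to 63.1 CPM in normoxic controls, 70.2 to 141 CPM in normoxic knockouts, 44.3 to 60.5 CPM in hypoxic controls and 74.7 to 97.8 CPM in hypoxic knockouts, and 7 of the 10 markers passed the test as higher in each knockout comparison. Summed erythroid markers were 0.899 to 6.16 CPM in the controls and 10.1 to 132 CPM in the knockouts, with 5 of 5 passing as higher at both oxygen levels. Endothelial markers passed as higher for 5 of 8 genes in normoxia and 1 of 8 in hypoxia, and mural markers for 6 of 7 and 4 of 7. In hypoxic knockouts 5 of 10 astrocyte markers were lower and 1 higher, and their sum was 26938 to 42138 CPM against 45842 to 52929 CPM in hypoxic controls. Neuronal markers passed as higher for 1 of 9 genes in normoxia and 6 of 9 in hypoxia, and oligodendrocyte markers for 1 of 7 and 3 of 7. Summed oligodendrocyte markers were 1028 to 1239 CPM in normoxic controls, 1313 to 1453 CPM in normoxic knockouts, 1059 to 1152 CPM in hypoxic controls and 1303 to 1898 CPM in hypoxic knockouts, with no overlap between genotypes. Border macrophage markers passed as higher for 2 of 6 genes in normoxia and 0 of 6 in hypoxia. Dendritic cell markers did so for 0 of 3 tested genes and 2 of 3. At both oxygen levels 1 of 4 tested T cell markers and the 1 tested B cell marker passed as lower. The part of these cell types in the results below was not tested, and in bulk RNA a change in the number of cells of a type and a change in RNA per cell cannot be told apart. Markers of natural killer cells and neutrophils were too low to test, with 0 of 6 genes each past the filter and the neutrophil gene Ly6g at 0 counts throughout. Knockout hypoxia replicates 1 to 3 stood apart, with 0.0442 to 0.0685% of counts from mitochondrially encoded genes against 0.00231 to 0.0181% in the other 16 libraries, and with summed neuronal markers of 2549 to 3473 CPM against at most 2079 CPM in the others. In 5 libraries (control normoxia 3 and 4, control hypoxia 6, knockout hypoxia 6 and 7) the Y-linked gene Ddx3y was at most 3.24 CPM, against at least 49.4 CPM in the rest.

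Promoters are shown for the 6 members with the smallest adjusted p in a knockout comparison for which a window was at hand, because these genes moved in the same direction and can be compared for the motifs through which interferon signalling acts. Each line is 1 window of 250 bases before to 50 bases after the annotated start, 5′ to 3′ on the gene's strand, from RefSeq on GRCm38.p6. Ifit2 and Gbp3 had 2 windows each, and the window with the most ISRE and GAS matches is shown. Capitals mark the ISRE core (GAAA, any pair of bases, GAAA) in either orientation or, in Ifit2, the GAS sequence TTCNNNGAA, which reads the same on both strands.
Cmpk2 (chr12:26468965-26469264, plus strand): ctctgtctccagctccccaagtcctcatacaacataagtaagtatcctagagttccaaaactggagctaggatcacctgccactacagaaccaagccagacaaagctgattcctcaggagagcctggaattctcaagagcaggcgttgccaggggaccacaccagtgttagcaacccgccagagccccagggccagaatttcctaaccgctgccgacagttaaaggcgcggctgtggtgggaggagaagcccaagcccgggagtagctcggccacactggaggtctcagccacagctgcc
Ifit2 (chr19:34550444-34550743, plus strand): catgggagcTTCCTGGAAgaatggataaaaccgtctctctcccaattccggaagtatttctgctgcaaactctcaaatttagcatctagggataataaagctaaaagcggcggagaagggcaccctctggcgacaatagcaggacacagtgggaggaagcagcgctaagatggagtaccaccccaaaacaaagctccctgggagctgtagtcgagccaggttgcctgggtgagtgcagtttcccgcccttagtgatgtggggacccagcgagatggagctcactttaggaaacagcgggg
Irgm1 (chr11:48871371-48871670, minus strand): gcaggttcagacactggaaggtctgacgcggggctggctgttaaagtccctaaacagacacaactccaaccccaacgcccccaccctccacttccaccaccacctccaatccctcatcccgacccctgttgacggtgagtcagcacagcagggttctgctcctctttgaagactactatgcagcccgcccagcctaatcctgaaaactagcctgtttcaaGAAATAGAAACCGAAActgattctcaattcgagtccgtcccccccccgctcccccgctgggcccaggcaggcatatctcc
Gbp3 (chr3:142559794-142560093, plus strand): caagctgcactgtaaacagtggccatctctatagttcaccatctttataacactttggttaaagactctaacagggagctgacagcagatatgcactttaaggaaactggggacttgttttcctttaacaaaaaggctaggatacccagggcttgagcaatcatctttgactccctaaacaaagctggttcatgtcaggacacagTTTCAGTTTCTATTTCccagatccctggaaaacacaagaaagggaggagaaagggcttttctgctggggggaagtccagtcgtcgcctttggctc
Gbp2 (chr3:142620413-142620712, plus strand): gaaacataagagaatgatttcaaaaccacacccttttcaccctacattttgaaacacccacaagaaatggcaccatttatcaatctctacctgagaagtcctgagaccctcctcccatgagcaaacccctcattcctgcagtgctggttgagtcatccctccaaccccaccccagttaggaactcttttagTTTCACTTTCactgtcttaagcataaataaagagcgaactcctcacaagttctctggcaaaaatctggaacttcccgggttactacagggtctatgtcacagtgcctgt
Ifih1 (chr2:62646206-62646505, minus strand): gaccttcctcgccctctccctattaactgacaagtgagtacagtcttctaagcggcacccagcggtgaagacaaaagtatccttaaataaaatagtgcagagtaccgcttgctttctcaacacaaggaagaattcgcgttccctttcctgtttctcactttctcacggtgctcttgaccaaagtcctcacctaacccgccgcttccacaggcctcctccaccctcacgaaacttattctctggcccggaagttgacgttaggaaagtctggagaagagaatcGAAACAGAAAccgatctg

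Irgm1 and Gbp3 each held a pair of overlapping ISRE cores, Gbp2 and Ifih1 held 1, Ifit2 held 1 GAS sequence and no ISRE core, and Cmpk2 held neither in this window. Of the 34 members, 26 were matched to windows; Zbp1, Dhx58, Usp18, Mx1, Iigp1, Ifi27, Rtp4 and Parp14 were not. The ISRE core was present in 14 of the 26 members, compared with 3.44% of all 32851 windows and 3.99% of 27025 genes. The GAS sequence was present in 8 of the 26, compared with 8.30% of windows and 9.55% of genes. Such a match describes letters in a window and is not a binding site.

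The Ifit genes lie side by side on chromosome 19, and Ifit1, Ifit3 and Ifit3b each held a pair of ISRE cores. Their stretches, chosen after the values of Ifit3 and Ifit3b were seen, are shown with 12 bases on either side.
Ifit1 (chr19:34640773-34640825, plus strand): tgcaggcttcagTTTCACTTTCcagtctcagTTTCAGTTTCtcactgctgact
Ifit3 (chr19:34583361-34583428, plus strand): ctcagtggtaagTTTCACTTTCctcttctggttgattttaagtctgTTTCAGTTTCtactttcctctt
Ifit3b (chr19:34607757-34607824, plus strand): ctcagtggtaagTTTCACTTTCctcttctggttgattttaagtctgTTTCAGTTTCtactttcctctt

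The stretches of Ifit3 and Ifit3b were identical over 68 of 68 bases, and the whole windows, aligned at this stretch, shared 201 of 268 bases (75.0%). Reads of such near-identical genes may have been divided or lost in counting, so the levels of Ifit3 and Ifit3b, and likewise of Ifit1, Oas1a and Gbp2, which have close relatives, are uncertain. The kit was stranded, but the strand setting of the counter was not given. In the RefSeq annotation Stat2 overlaps Apof, Rtp4 overlaps Masp1, Ifit1 and Ifit3b overlap Ifit1bl1, and Ifi27 overlaps Ifi27l2a, and reads there cannot be assigned to 1 gene with certainty. Eif2ak2, Ifih1, Dhx58, Trim25, Isg15, Usp18 and Gbp3 overlap predicted genes only.

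Per gene length, the members spanned a wide range of levels in normoxic controls. Ifi27, a small mitochondrial membrane protein, had the highest level at 27.7 ± 3.19 RPKM (SD, n = 4). Ifit3 followed at 14.4 ± 0.645 RPKM and Ifit3b at 7.81 ± 1.31 RPKM. At the other end, Mx1, a dynamin-like GTPase that blocks replication of influenza-type viruses, measured 0.0322 ± 0.00894 RPKM. Zbp1, a sensor of Z-form nucleic acid, measured 0.0934 ± 0.0292 RPKM and Ifi44 0.109 ± 0.0635 RPKM. Among neighbours in this order, 27 of 33 pairs had overlapping ranges over the 4 libraries, so most adjacent ranks do not differ beyond their spread.

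**Figure D1:**
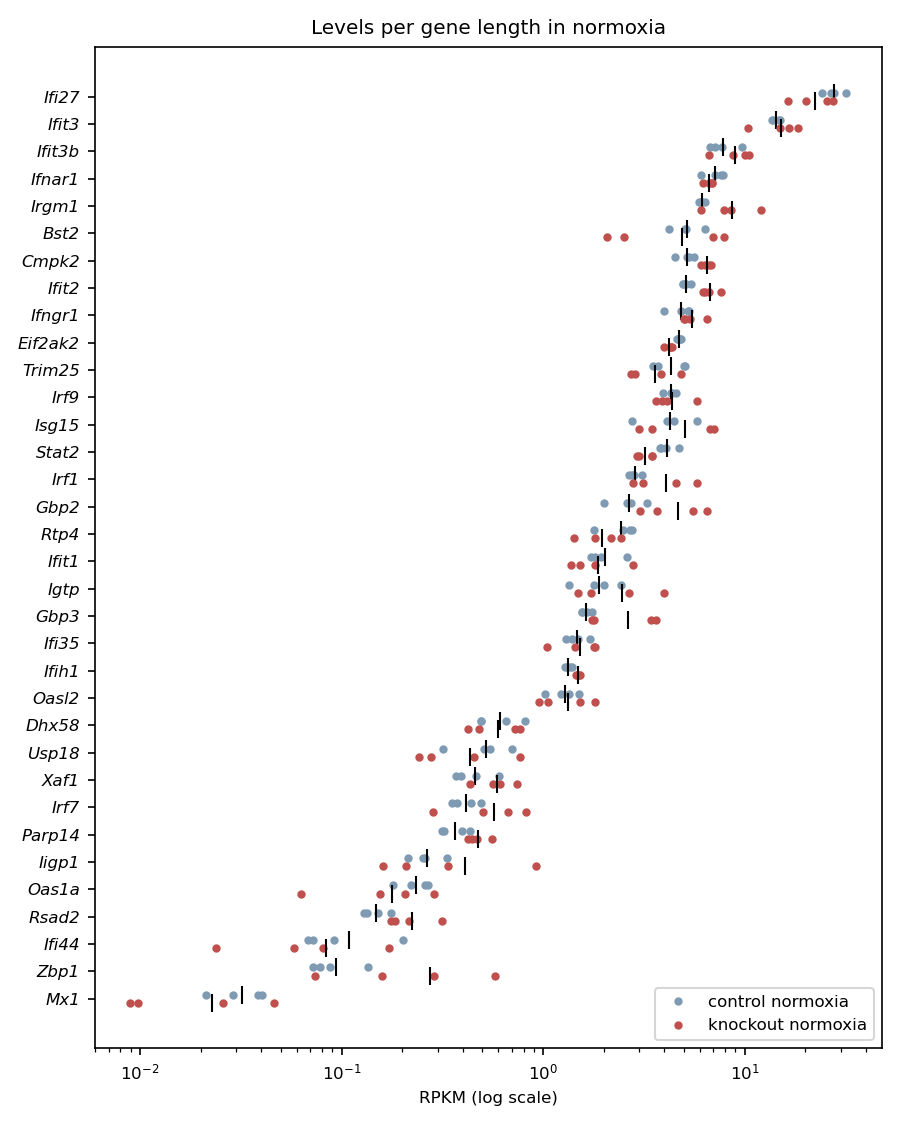
Levels of the 34 genes per gene length in normoxia, as RPKM on a log axis; each point is 1 library, with controls in blue and knockouts in red, and vertical bars mark group means. Genes run from Ifi27 (27.7 RPKM in controls) at the top to Mx1 (0.032 RPKM) at the bottom, and the 4 knockout libraries spread more widely than the controls for many genes, Iigp1, Bst2 and Zbp1 among them.

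Across libraries the members did not move as a single block. As a summary, the mean over the 34 members of log2(CPM + 0.1) minus each gene's mean over all 19 libraries was taken. It was -0.027, -0.047, -0.14 and 0.035 in normoxic control replicates 1 to 4. It was -0.27, -0.12, 0.42 and 0.27 in normoxic knockout replicates 1 to 4. The normoxic knockouts held both the lowest and the highest value among these 8 libraries: 29 of 34 members were above their own mean in replicate 3 and 9 of 34 in replicate 1. Summed microglial markers were also highest in knockout replicate 3, at 141 CPM, against 92.7, 70.2 and 97.9 CPM in replicates 1, 2 and 4. Replicate 1, with the lowest summary, did not have the lowest microglial sum. Among the normoxic knockouts, replicate 3 also had the highest erythroid sum (48.5 CPM) and the lowest astrocyte sum (36870 CPM). Endothelial, mural, neuronal and oligodendrocyte sums were highest in replicate 1. The part of these cell types in the summary was not tested. The summary was -0.27, -0.34, 0.06 and -0.094 in hypoxic control replicates 3 to 6, and ranged from -0.17 to 0.18 with a median of 0.12 in the 7 hypoxic knockouts. Control hypoxia replicate 5 lay among the knockouts and knockout hypoxia replicate 1 lay among the controls.

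**Figure D2:**
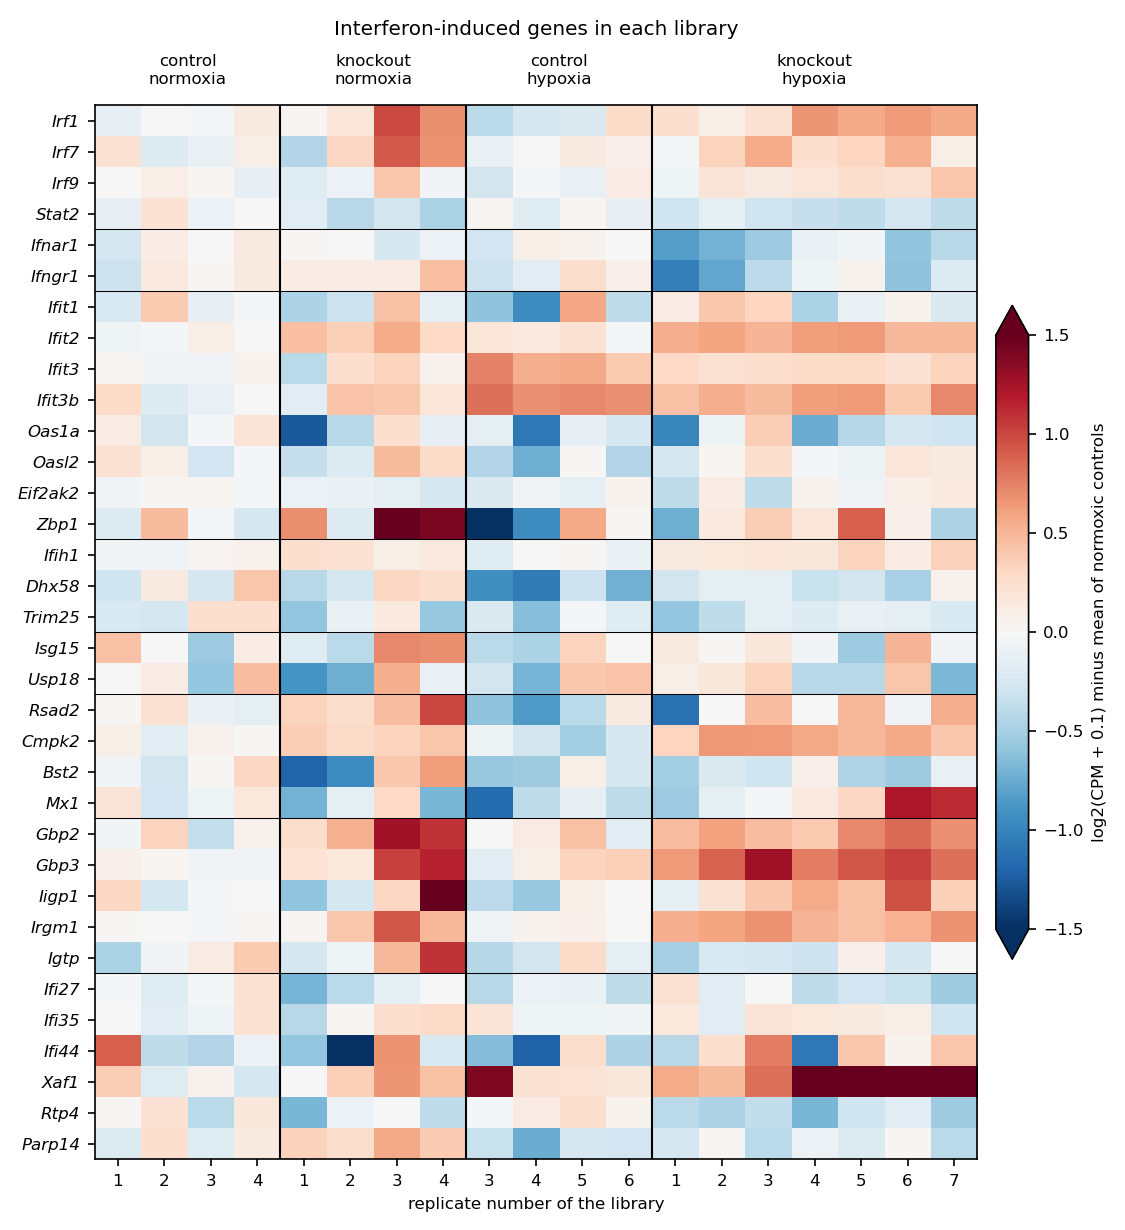
Each row is 1 gene, grouped by role, and each column 1 library; colour gives log2(CPM + 0.1) minus the mean of the 4 normoxic controls, with red for higher and blue for lower and the scale ending at 1.5 in both directions. Red cells gather in normoxic knockout replicates 3 and 4 for most genes, Isg15 among them. In all hypoxic knockouts they gather for Ifit2, Cmpk2, Gbp3 and Irgm1, and also for Gbp2, Xaf1, Ifit3, Ifit3b, Irf1 and Ifih1. Ifit3 and Ifit3b are red in all hypoxic controls too. Isg15, Usp18 and Oas1a show no such block in the hypoxic knockouts.

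Knockout against control in normoxia was the first comparison. Cmpk2, Ifit2 and 3 interferon-inducible GTPases were higher in the knockouts and Stat2 was lower. In total 6 of 34 members passed an adjusted p of 0.05 (edgeR quasi-likelihood test, Benjamini-Hochberg over 19854 genes), 5 higher and 1 lower, against a background of 12.2% of all genes tested, 6.9% higher and 5.27% lower. The median log2 fold change was 0.13 over the members and -0.011 over all genes, and 21 of 34 members were above 0, against 48.7% of all genes. The ranges of the groups did not overlap for 7 members higher and 2 lower, against 9.82% and 9.84% of all genes.

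In hypoxia the same comparison gave 10 of 34 members, 6 higher and 4 lower, against 19.7% of all genes, 10.4% higher and 9.37% lower. Cmpk2, Ifit2, Irgm1, Gbp3, Ifih1 and Irf1 were higher in the knockouts, and Rtp4, Stat2, Ifnar1 and Ifit3 were lower. The median log2 fold change was 0.27 over the members and 0.011 over all genes, and 26 of 34 members were above 0, against 51.3% of all genes. Groups did not overlap for 5 members higher and 2 lower, against 5.37% and 6.52% of all genes. Ifit2, Irgm1, Cmpk2 and Gbp3 passed as higher, and Stat2 as lower, at both oxygen levels, and 23 of 34 members passed in neither. The shares of all genes passing at both levels or in neither were not taken, so these counts only describe the members. Without knockout hypoxia replicates 1 to 3, 8 members passed in hypoxia, all of them higher: Irf1, Ifit2, Ifih1, Cmpk2, Mx1, Gbp3, Irgm1 and Xaf1. In that fit 8.7% of 19504 genes passed, 4.51% higher and 4.18% lower. With the replicate number as a block, on libraries with shared numbers only, Irf1, Ifit2, Cmpk2, Gbp3, Irgm1 and Iigp1 passed as higher. Ifit3 passed as lower, while Stat2, Ifnar1, Ifih1 and Rtp4 did not pass. In the block fit 13.9% of 18798 genes passed, 7.76% higher and 6.13% lower.

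**Figure D3:**
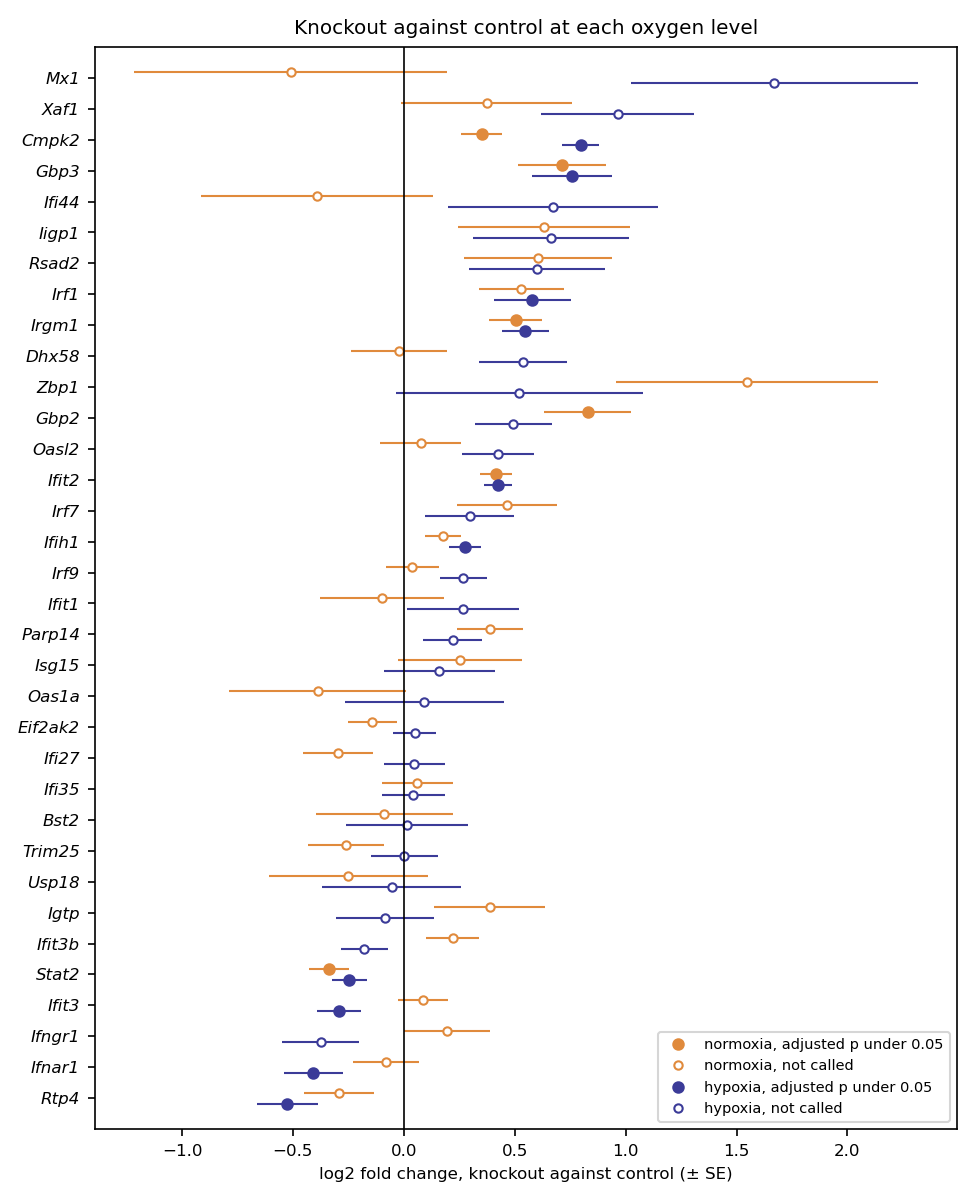
Log2 fold change of knockout against control for each gene with its standard error, in normoxia (orange) and hypoxia (blue); filled points passed an adjusted p of 0.05 over all genes and open points did not. Filled points on the right in both colours are Cmpk2, Gbp3, Irgm1 and Ifit2, and on the left Stat2; Mx1 and Zbp1 have the widest bars.

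Among the transcription factors, Stat2, the subunit that gives ISGF3 its activating domain, was lower in the knockouts. In normoxia it measured 22.6, 28.8, 23.3 and 24.7 CPM in the 4 controls and 21.97, 18.6, 20.4 and 17.8 CPM in the 4 knockouts. Every knockout was below every control. This was a log2 fold change of -0.34 ± 0.090 (SE; edgeR adjusted p = 0.0215), and the call was lost without knockout normoxia replicate 4 (-0.29, adjusted p = 0.0543) or control normoxia replicate 2 (-0.26, adjusted p = 0.0761), and in a fit of the normoxic libraries alone (adjusted p = 0.0677). In hypoxia Stat2 measured 25.4, 21.9, 25.3 and 22.8 CPM in the controls and from 18.9 to 22.6 (median 20.1) CPM in the 7 knockouts. The groups overlapped through the highest knockout library only. Here the log2 fold change was -0.25 ± 0.079 (edgeR adjusted p = 0.0353), and -0.26 (adjusted p = 0.0788) with the replicate number as a block, a fit that holds only the libraries with shared numbers. Left out one at a time, knockout hypoxia 1 or 3 or control hypoxia 3, 5 or 6 also ended the call for Stat2, with adjusted p between 0.0512 and 0.115, as did leaving out knockout hypoxia 1 to 3 together (adjusted p = 0.0556) and applying no filter on low counts (adjusted p = 0.0625).

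Irf1, a factor that interferon gamma induces strongly, was higher in the hypoxic knockouts. It measured 8.68, 9.54, 9.91 and 13.9 CPM in hypoxic controls 3 to 6 and from 12.3 to 18.3 (median 17.1) CPM in hypoxic knockouts. Control replicate 6 lay inside the knockout range and the other 3 controls below it, and knockout replicates 1 to 3 held 12.3 to 13.6 CPM against 17.1 to 18.3 CPM in replicates 4 to 7. Irf1 had a log2 fold change of 0.58 ± 0.17 (edgeR adjusted p = 0.0256); the call was lost without control hypoxia replicate 3 (0.50, adjusted p = 0.0783), replicate 4 (0.53, adjusted p = 0.0823) or replicate 5 (0.55, adjusted p = 0.0763). In normoxia Irf1 measured 10.6, 11.6, 11.3 and 12.6 CPM in controls and 11.8, 13.1, 23.02 and 18.7 CPM in knockouts, where replicates 3 and 4 stood above the other normoxic libraries. That comparison gave 0.53 ± 0.19 and did not pass (adjusted p = 0.0746), but passed without knockout normoxia replicate 1 (0.66, adjusted p = 0.0398) or replicate 2 (0.63, adjusted p = 0.0401). Irf1 in normoxia also passed with DESeq2, without knockout hypoxia 1 to 3, and with Y-linked RNA as a covariate. Irf7, which drives interferon genes themselves, gave 0.46 ± 0.22 in normoxia and 0.30 ± 0.20 in hypoxia, with adjusted p of 0.183 and 0.309. Irf9, the DNA-binding subunit of ISGF3, gave 0.039 ± 0.12 and 0.27 ± 0.11, with adjusted p of 0.868 and 0.0828; the hypoxic value of Irf9 passed without knockout normoxia 3 (adjusted p = 0.0396) or knockout hypoxia 1 (adjusted p = 0.0498).

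Of the receptor chains among the members, Ifnar1 was lower in the hypoxic knockouts. It measured 35.3, 45.8, 44.7 and 43.3 CPM in hypoxic controls and from 24.3 to 41.9 (median 29.6) CPM in hypoxic knockouts. Knockout replicates 1 to 3 held 24.3 to 29.6 CPM and replicates 4 to 7 held 28.6 to 41.9 CPM, and replicates 1, 2, 3, 6 and 7 were below every hypoxic control. For Ifnar1 the log2 fold change was -0.41 ± 0.13 (edgeR adjusted p = 0.0357), -0.28 (adjusted p = 0.0941) with the replicate block, and -0.24 without replicates 1 to 3 (adjusted p = 0.252). Leaving out any 1 of knockout hypoxia 1, 2, 3 or 6 or of control hypoxia 4, 5 or 6 also ended the call, with adjusted p between 0.0611 and 0.107, as did a fit of the hypoxic libraries alone (adjusted p = 0.0782). In normoxia Ifnar1 gave -0.079 ± 0.15 (adjusted p = 0.774). Ifnar2, the partner chain of Ifnar1, gave -0.41 ± 0.13 in hypoxia (adjusted p = 0.0333). That call was lost without any 1 of knockout hypoxia 1, 2, 3 or 6 or of control hypoxia 4, 5 or 6 (adjusted p for Ifnar2 between 0.051 and 0.107), and without knockout hypoxia 1 to 3 the value was -0.28 (adjusted p = 0.241). The other 3 receptor chains listed did not pass, and in normoxia 0 of 4 passed, where 0 also had an unadjusted edgeR p under 0.05.

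Ifngr1, the ligand-binding chain of the interferon gamma receptor, measured 11.3, 12.5, 16.8 and 14.7 CPM in hypoxic controls and from 6.83 to 14.4 (median 10.6) CPM in hypoxic knockouts, which overlapped. Its log2 fold change was -0.38 ± 0.17 (edgeR adjusted p = 0.128), and it passed when knockout hypoxia replicate 5 was left out (-0.47, adjusted p = 0.0471). In normoxia it gave 0.20 ± 0.20 (adjusted p = 0.557).

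Ifit2, a tetratricopeptide repeat protein that restrains viral replication, was higher in the knockouts at both oxygen levels. In normoxia it measured 19.5, 19.9, 21.8 and 20.5 CPM in controls and 27.9, 26.1, 29.9 and 25.04 CPM in knockouts. In hypoxia it measured 23.2, 22.7, 23.7 and 20.1 CPM in controls and from 28.7 to 31.9 (median 29.8) CPM in knockouts. At both oxygen levels every knockout library was above every control library. Mean levels were 20.4 ± 1.01 against 27.2 ± 2.14 CPM (SD, n = 4 each) in normoxia and 22.4 ± 1.57 (n = 4) against 30.1 ± 1.33 CPM (n = 7) in hypoxia. The log2 fold changes were 0.42 ± 0.072 (edgeR adjusted p = 0.00156) and 0.42 ± 0.064 (adjusted p = 0.000276), and both calls held in all 28 alternatives tried.

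Ifit3 and Ifit3b are neighbours of Ifit2. In normoxia Ifit3 gave 0.088 ± 0.11 and Ifit3b 0.22 ± 0.12, neither past the test (adjusted p of 0.655 and 0.243). In hypoxia Ifit3 measured 42.8, 37.3, 38.02 and 33.5 CPM in controls and from 29.6 to 32.3 (median 31.3) CPM in knockouts. All knockouts were below all controls. Its log2 fold change was -0.29 ± 0.098 (edgeR adjusted p = 0.0424). That call sat near the threshold: leaving out any 1 of control normoxia 1 to 4, control hypoxia 3, 4 or 5, or knockout hypoxia 1, 2, 3 or 6 gave Ifit3 an adjusted p between 0.0502 and 0.14, and leaving out knockout hypoxia 1 to 3 together gave 0.148, and no filter on low counts gave 0.0595. Ifit3b in hypoxia gave -0.18 ± 0.11 (adjusted p = 0.240). Ifit1, which binds viral RNA by its cap, gave -0.098 ± 0.28 and 0.27 ± 0.25, with adjusted p of 0.857 and 0.480.

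Among the RNA sensors, Ifih1, a cytosolic helicase that senses viral RNA, was higher in hypoxic knockouts. It measured 9.79, 11.1, 11.3 and 10.3 CPM in controls and from 12.02 to 14.2 (median 12.5) CPM in knockouts, with no overlap. Ifih1 had a log2 fold change of 0.27 ± 0.071 (edgeR adjusted p = 0.0132), and 0.27 (adjusted p = 0.0905) with the replicate block; the same libraries without the block gave an adjusted p of 0.0905. In normoxia Ifih1 gave 0.18 ± 0.080 with all knockouts above all controls (adjusted p = 0.155). Dhx58, a helicase that regulates such sensors, gave -0.022 ± 0.21 in normoxia and 0.54 ± 0.20 in hypoxia (adjusted p of 0.961 and 0.0623). It passed in hypoxia with DESeq2, and with edgeR without control replicate 5 (0.72, adjusted p = 0.0364). Trim25, a ubiquitin ligase acting on RNA sensing, gave -0.26 ± 0.17 and 0.0029 ± 0.15 (adjusted p of 0.340 and 0.991).

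Zbp1 had the largest fitted fold change of the members in normoxia, 1.55 ± 0.59, and did not pass (edgeR adjusted p = 0.0924). It measured 0.276, 0.4932, 0.318 and 0.260 CPM in controls and 0.596, 0.273, 2.03 and 1.04 CPM in knockouts. Knockout replicates 1, 3 and 4 lay above all controls, and without replicate 2 the value was 1.86 (adjusted p = 0.0326). Oas1a, a synthetase that makes oligoadenylate on sensing viral RNA, its relative Oasl2, and Eif2ak2, the kinase that halts translation, did not pass in either comparison. Oasl2 in hypoxia was the nearest of these, at 0.42 ± 0.16 (adjusted p = 0.0738), and passed without control hypoxia replicate 5 (0.58, adjusted p = 0.0360). With DESeq2 it passed as well.

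The Isg15 system did not pass in either comparison. Isg15, the ubiquitin-like modifier, measured 4.06, 2.98, 2.003 and 3.21 CPM in normoxic controls and 2.60, 2.22, 4.96 and 4.87 CPM in normoxic knockouts, where replicates 3 and 4 were high and replicates 1 and 2 lay within the controls. Its log2 fold change was 0.25 ± 0.28 in normoxia and 0.16 ± 0.25 in hypoxia (edgeR adjusted p of 0.597 and 0.686). Usp18, which removes Isg15 from proteins and restrains type I receptor signalling, gave -0.25 ± 0.36 and -0.054 ± 0.31 (adjusted p of 0.691 and 0.922).

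Cmpk2, a mitochondrial nucleotide kinase, had the smallest adjusted p of all members. In normoxia it measured 23.2, 19.4, 22.8 and 22.1 CPM in controls and 28.2, 26.6, 27.5 and 29.1 CPM in knockouts. In hypoxia it measured 20.7, 17.9, 15.3 and 18.4 CPM in controls and from 27.4 to 34.3 (median 32.4) CPM in knockouts. The groups were apart at both oxygen levels. Means were 21.8 ± 1.73 against 27.9 ± 1.07 CPM (SD, n = 4 each) in normoxia and 18.1 ± 2.21 (n = 4) against 31.4 ± 2.58 CPM (n = 7) in hypoxia. The log2 fold changes were 0.35 ± 0.091 (edgeR adjusted p = 0.0199) and 0.80 ± 0.083 (adjusted p = 8.79e-06). Without control normoxia replicate 2 the normoxic value was 0.30 (adjusted p = 0.0658), while the hypoxic call held in all 28 alternatives.

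Rsad2 lies next to Cmpk2 on chromosome 12 and encodes viperin, an enzyme that makes a chain-terminating nucleotide. It gave 0.61 ± 0.33 in normoxia and 0.60 ± 0.31 in hypoxia, with wider errors than Cmpk2, and did not pass (edgeR adjusted p of 0.244 and 0.174). In normoxia Rsad2 measured 0.658, 0.781, 0.599 and 0.575 CPM in controls and 0.848, 0.802, 0.929 and 1.40 CPM in knockouts, and the knockouts lay above the controls in all 4 libraries. Bst2, which tethers budding virus to the membrane, gave -0.089 ± 0.31 and 0.016 ± 0.27 (adjusted p of 0.886 and 0.972). Mx1 was close to the limit of counting, since 3 counts correspond to 0.0431 to 0.0654 CPM. It measured 0, 0.0701, 0.104 and 0.0704 CPM in hypoxic controls and from 0.0527 to 0.417 (median 0.145) CPM in hypoxic knockouts, with replicates 6 and 7 highest. Its fitted log2 fold change of 1.67 ± 0.65 did not pass (adjusted p = 0.0746), and reached 2.17 without knockout hypoxia 1 to 3 (adjusted p = 0.0367). With DESeq2 Mx1 passed on all libraries.

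The interferon-inducible GTPases, which attack the membranes around intracellular pathogens, held 3 of the 5 members called higher in normoxia and 2 of the 6 called higher in hypoxia. Irgm1, a regulator of the immunity-related GTPases, measured 36.7, 36.1, 35.6 and 36.6 CPM in normoxic controls and 37.4, 48.02, 69.4 and 51.1 CPM in normoxic knockouts. In hypoxia it measured 34.96, 37.6, 38.3 and 36.4 CPM in controls and from 49.4 to 58.1 (median 53.1) CPM in knockouts. Every knockout was above every control at both levels, although normoxic knockout replicate 1 was barely above. The log2 fold changes were 0.51 ± 0.12 (edgeR adjusted p = 0.0118) and 0.55 ± 0.11 (adjusted p = 0.00223). In a fit of the 8 normoxic libraries alone Irgm1 did not pass (adjusted p = 0.0645), while the hypoxic call held in all 28 alternatives.

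Gbp3, a guanylate-binding protein, measured 5.68, 5.51, 5.22 and 5.21 CPM in normoxic controls and 6.23, 6.02, 11.1 and 12.1 CPM in normoxic knockouts. In hypoxia it measured 4.81, 5.75, 6.83 and 6.95 CPM in controls and from 8.44 to 13.2 (median 10.02) CPM in knockouts. The groups did not overlap, and in normoxia knockout replicates 3 and 4 were far above replicates 1 and 2. The log2 fold changes were 0.71 ± 0.20 (edgeR adjusted p = 0.0264) and 0.76 ± 0.18 (adjusted p = 0.00773). In normoxia the call for Gbp3 was lost when knockout replicate 3 or 4, or any 1 of the 4 controls, was left out, with log2 fold changes between 0.53 and 0.74 and adjusted p between 0.0536 and 0.0992, and in a fit of the normoxic libraries alone (adjusted p = 0.0714). In hypoxia it held in all 28 alternatives.

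Gbp2 measured 6.54, 8.51, 5.21 and 7.01 CPM in normoxic controls and 8.10, 9.76, 16.2 and 14.3 CPM in normoxic knockouts, so replicate 1 lay within the controls and replicates 3 and 4 above every other library. Its log2 fold change was 0.83 ± 0.20 (edgeR adjusted p = 0.0116), and 0.65 without knockout replicate 3 (adjusted p = 0.0526). In hypoxia it measured 6.70, 7.31, 9.11 and 6.02 CPM in controls and from 8.85 to 12.2 (median 10.2) CPM in knockouts, which overlapped through control replicate 5. That comparison gave 0.49 ± 0.17 (adjusted p = 0.0533). The value for Gbp2 in hypoxia passed without control hypoxia 5 (adjusted p = 0.0445), knockout hypoxia 4 (adjusted p = 0.0418), or knockout normoxia 1 or 3 (adjusted p of 0.0308 and 0.0403). It also passed with DESeq2 and in a fit of the hypoxic libraries alone.

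Iigp1, another immunity-related GTPase, gave 0.63 ± 0.39 and 0.66 ± 0.35 (edgeR adjusted p of 0.306 and 0.190). In normoxia it measured 0.993, 1.28, 1.96 and 5.53 CPM in the knockouts, against 1.94, 1.27, 1.52 and 1.54 CPM in controls, and knockout replicate 4 alone stood well above them. In hypoxia Iigp1 passed with the replicate block, at 0.86 (adjusted p = 0.0272). Igtp, also called Irgm3, gave 0.39 ± 0.25 and -0.084 ± 0.22 (adjusted p of 0.330 and 0.824).

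Of the remaining members, Rtp4, a receptor transporter protein, was lower in hypoxic knockouts. It measured 5.09, 5.68, 6.26 and 5.40 CPM in controls and from 3.19 to 4.63 (median 3.91) CPM in knockouts, with no overlap. Rtp4 had a log2 fold change of -0.52 ± 0.14 (edgeR adjusted p = 0.0146), and -0.49 (adjusted p = 0.0623) with the replicate block. The call was also lost without control hypoxia replicate 5 (-0.47, adjusted p = 0.0584) and without knockout hypoxia 1 to 3 (-0.53, adjusted p = 0.0646). In normoxia Rtp4 gave -0.29 ± 0.16 (adjusted p = 0.241). Ifi27, Ifi35 and Ifi44 did not pass in either comparison. Over all 23 members that passed in neither, the fitted log2 fold changes ran from -0.51 to 1.55 in normoxia and from -0.38 to 1.67 in hypoxia. In normoxia Mx1 was lowest and Zbp1 highest, and in hypoxia Ifngr1 was lowest and Mx1 highest.

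**Figure D4:**
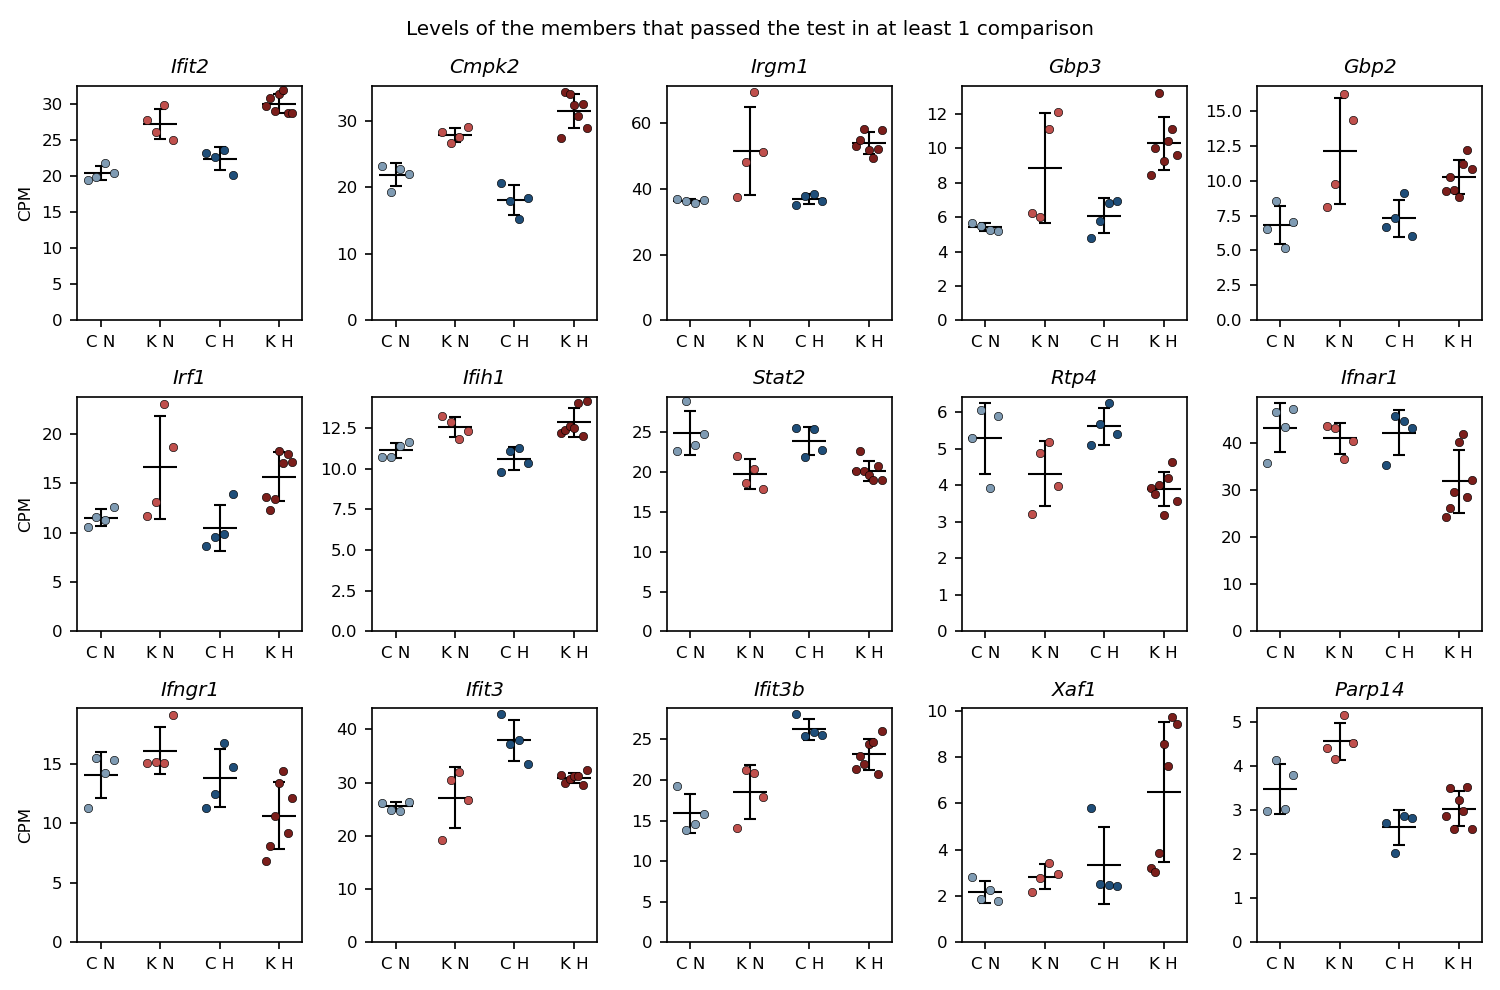
Levels in CPM of the 15 genes that passed the test in at least 1 comparison, with 1 point per library and bars for the mean and SD (n = 4, 4, 4 and 7); C is control, K knockout, N normoxia and H hypoxia, and each axis starts at 0. Knockout points lie above control points at both oxygen levels for Ifit2, Cmpk2, Irgm1 and Gbp3, Ifit3b is highest in hypoxic controls, and Xaf1 splits the hypoxic knockouts into a low and a high cluster.

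The 7 days of low oxygen in control mice moved 1 member past the test. Ifit3b rose from 19.3, 13.8, 14.6 and 15.8 CPM in normoxic controls to 28.1, 25.4, 25.95 and 25.5 CPM in hypoxic controls. The lowest hypoxic library was above the highest normoxic one. This was a log2 fold change of 0.72 ± 0.12 (edgeR adjusted p = 0.0175), and Ifit3b was the only gene of 19854 called higher, with 16 called lower; called genes made up 0.0856% of those tested, 0.00504% higher and 0.0806% lower. The call was lost when any 1 of control normoxia 2, 3 or 4 or of control hypoxia 3, 4 or 5 was left out, with log2 fold changes of Ifit3b between 0.66 and 0.74 and adjusted p between 0.0638 and 0.108. Ifit3 measured 26.2, 24.8, 24.7 and 26.4 CPM in normoxic and 42.8, 37.3, 38.02 and 33.5 CPM in hypoxic controls, again apart, at 0.57 ± 0.11 (adjusted p = 0.0667). Ifit3 passed without control hypoxia replicate 6 (0.62, adjusted p = 0.0379) or without knockout normoxia 1 or 3 (adjusted p of 0.00228 and 0.0392). It also passed with DESeq2 and in a fit of the controls alone.

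Because reads may be divided between these copies, their sum was also taken. Ifit3 and Ifit3b together measured 41.4 ± 3.13 CPM in normoxic controls (SD, n = 4) and 64.2 ± 5.002 CPM in hypoxic controls (n = 4), with ranges of 38.7 to 45.5 and 59.0 to 71.0 CPM. In the knockouts the sum was 45.7 ± 8.998 CPM in normoxia (n = 4) and 54.1 ± 2.66 CPM in hypoxia (n = 7). The hypoxic controls were thus the highest of the 4 groups, with every library above every hypoxic knockout. Ifit3b held 35.8 to 44.7% of the sum in every library.

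The other members in hypoxic controls did not pass. The median log2 fold change was -0.11 over the members and -0.0046 over all genes. Above 0 were 10 of 34 members, against 48.9% of all genes. Ranges did not overlap for 2 members higher (Ifit3b and Ifit3) and 2 lower (Dhx58 and Parp14), against 4.49% and 4.53% of all genes. Dhx58 gave -0.80 ± 0.22 (edgeR adjusted p = 0.234). Cmpk2 gave -0.27 ± 0.092 (adjusted p = 0.343) and Ifit2 0.14 ± 0.072 (adjusted p = 0.618).

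Low oxygen in the knockouts gave 3 of 34 members, 1 higher and 2 lower, against 12.5% of all genes, 4.76% higher and 7.77% lower. Groups overlapped for all members higher and were apart for 2 lower, against 2.97% and 4.74% of all genes. The median log2 fold change was 0.0064 over the members and 0.022 over all genes. Above 0 were 17 of 34 members, against 53.2% of all genes. Parp14, an ADP-ribosyltransferase, fell: it measured 4.40, 4.16, 5.15 and 4.51 CPM in normoxic knockouts and from 2.57 to 3.51 (median 2.97) CPM in hypoxic knockouts, with no overlap. Its log2 fold change was -0.59 ± 0.13 (edgeR adjusted p = 0.00941). In the libraries with shared replicate numbers Parp14 did not pass (adjusted p = 0.0688, and 0.139 with the replicate block). In controls Parp14 gave -0.42 ± 0.15 (adjusted p = 0.384).

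Ifngr1 fell as well, with 15.1, 15.1, 15.1 and 19.1 CPM in normoxic knockouts and from 6.83 to 14.4 (median 10.6) CPM in hypoxic knockouts. All hypoxic libraries were below all normoxic ones; knockout hypoxia 1 to 3 held 6.83 to 10.6 CPM and replicates 4 to 7 held 9.19 to 14.4 CPM. For Ifngr1 the log2 fold change was -0.60 ± 0.17 (edgeR adjusted p = 0.0296), and -0.40 without knockout hypoxia 1 to 3 (adjusted p = 0.115). The call for Ifngr1 was also lost without any 1 of knockout normoxia 1, 2 or 4 or of knockout hypoxia 2 or 6, with adjusted p between 0.0517 and 0.0934, and in a fit of the knockouts alone (adjusted p = 0.0788).

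Xaf1, a factor that promotes cell death, measured 2.17, 2.78, 3.45 and 2.96 CPM in normoxic knockouts and from 3.03 to 9.72 (median 7.61) CPM in hypoxic knockouts. The hypoxic knockouts fell into separate clusters: replicates 1 to 3 held 3.03 to 3.88 CPM, close to normoxia, and replicates 4 to 7 held 7.61 to 9.72 CPM. These are the same libraries that differ in mitochondrially encoded RNA, and the part of that difference was not tested. Xaf1 had a log2 fold change of 1.19 ± 0.35 (edgeR adjusted p = 0.0334). It was lost without any 1 of knockout normoxia 1 to 4 or of knockout hypoxia 6 or 7, at 1.07 to 1.30 with adjusted p for Xaf1 between 0.0501 and 0.0944. It was also lost in a fit of the knockouts alone (adjusted p = 0.0740), with no filter on low counts (adjusted p = 0.0594) and with Y-linked RNA as a covariate (adjusted p = 0.0659). Against hypoxic controls, which measured 5.82, 2.54, 2.49 and 2.43 CPM with replicate 3 far above the others, Xaf1 gave 0.96 ± 0.34 (adjusted p = 0.0561). That comparison passed without control hypoxia 3 (1.38, adjusted p = 0.0168), without any 1 of knockout hypoxia 1, 2 or 3 (adjusted p of 0.0336, 0.0323 and 0.0487), and without all of those 3 libraries (1.41, adjusted p = 0.00220). With DESeq2 it passed on all libraries.

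Whether the knockout effect itself differed between oxygen levels was tested with the interaction of genotype and oxygen. No member passed, 0 of 34 with edgeR and 0 with DESeq2, against 0.0101% and 0.544% of all genes. Of the members, 5 had an unadjusted edgeR p under 0.05. Cmpk2 was nearest: its knockout effect was greater in hypoxia by 0.45 ± 0.12 on the log2 scale (adjusted p = 0.267, and from 0.0803 to 1.00 over the alternatives). Ifit3 and Ifit3b gave -0.38 ± 0.15 and -0.40 ± 0.16 (adjusted p of 0.361 and 0.367), and Ifit2 gave 0.0070 ± 0.096 (adjusted p = 0.989). Calls made at 1 oxygen level only are therefore not shown to differ from the other level.

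Other genes of the pathway were read from lists of ligands, receptor chains, signalling genes, sensors and further induced genes. Of 12 interferon ligands none passed the filter: 10 had 0 counts in all 19 libraries, Ifng had 6 counts in all and Ifnz 46. In the shallowest library 3 counts, the limit taken for a gene at 0, correspond to 0.0654 CPM. Among 15 signalling and feedback genes, Socs3 and Stat3 were higher in both comparisons. Socs3, an inhibitor of cytokine receptor signalling, gave 1.71 ± 0.34 in normoxia and 1.10 ± 0.30 in hypoxia (edgeR adjusted p of 0.00410 and 0.0187). Stat3, which acts downstream of cytokines related to interleukin-6, gave 0.48 ± 0.099 and 0.31 ± 0.089 (adjusted p of 0.00512 and 0.0203). Irf8 and Ptpn6 were also higher in hypoxia, at 1.12 ± 0.20 and 0.83 ± 0.20, and Irf2 was lower, at -0.31 ± 0.083 (adjusted p of 0.00121, 0.00952 and 0.0147). In hypoxia the call of Socs3 was lost without control hypoxia 4 or 6 (adjusted p of 0.0584 and 0.0531), that of Stat3 without control hypoxia 6 (adjusted p = 0.0759), and that of Irf2 without control hypoxia 4 (adjusted p = 0.0759). The median of this list was 0.027 in normoxia and 0.0034 in hypoxia.

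The gamma-type list held GTPases, chemokines and other genes such as Ciita and Nlrc5. Of 18 tested genes, 6 were higher in normoxia and 4 in hypoxia, with 0 lower and medians of 0.96 and 0.62. Over all genes 6.9% were higher and 5.27% lower in normoxia, and 10.4% higher and 9.37% lower in hypoxia, and these shares are also the background of the lists that follow. Cxcl10, a chemokine that attracts T cells, measured 1.12, 1.44, 1.48 and 1.26 CPM in normoxic controls and 4.86, 3.14, 6.41 and 9.28 CPM in normoxic knockouts. In hypoxia it measured 0.913, 1.12, 1.68 and 2.18 CPM in controls and from 5.30 to 8.73 (median 6.85) CPM in knockouts. The groups were apart at both levels, with log2 fold changes of 2.16 ± 0.30 and 2.25 ± 0.28 (edgeR adjusted p of 0.000287 and 3.86e-05). Ciita, the activator of class II histocompatibility genes, gave 1.87 ± 0.35 and 1.82 ± 0.32 (adjusted p of 0.00261 and 0.000987). The GTPase gene Ifi47 gave 1.46 ± 0.28 and 1.02 ± 0.26 (adjusted p of 0.00348 and 0.0120), and Gbp5 gave 0.91 ± 0.20 and 1.10 ± 0.19 (adjusted p of 0.00805 and 0.000698). In normoxia Tgtp2, at 1.70 ± 0.47, and Nlrc5, at 1.20 ± 0.34, also passed (adjusted p of 0.0262 and 0.0266). The call of Tgtp2 was lost without any 1 of knockout normoxia 3 or 4 or of control normoxia 1, 3 or 4 (adjusted p between 0.0587 and 0.0967), and that of Nlrc5 without knockout normoxia 1 or 3 or control normoxia 1, 2 or 4 (adjusted p between 0.052 and 0.115).

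Of 14 tested sensing genes, 2 were higher in normoxia, and 2 were higher and 2 lower in hypoxia, with medians of 0.069 and 0.23. Tlr9, a receptor for foreign DNA, gave 1.39 ± 0.34 in normoxia (edgeR adjusted p = 0.0154), and 1.07 without knockout normoxia 3 (adjusted p = 0.0710). Sting1, the adaptor of cytosolic DNA sensing, gave 0.64 ± 0.16 and 0.50 ± 0.15 (adjusted p of 0.0182 and 0.0256). Its calls were lost without control normoxia 1 or 2 in the first comparison and without control hypoxia 3, 4 or 6 in the second, with adjusted p for Sting1 between 0.0522 and 0.0781. Cgas, the enzyme that senses cytosolic DNA, gave 1.05 ± 0.30 in hypoxia (adjusted p = 0.0227) and lost its call without control hypoxia 4, 5 or 6 (adjusted p between 0.0539 and 0.0806). Mavs and Ticam1, the adaptors of RNA sensing and of Toll-like receptor signalling, were lower in hypoxia, at -0.43 ± 0.10 and -0.42 ± 0.093 (adjusted p of 0.00857 and 0.00504).

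Of 43 tested further antiviral genes, 5 were higher and 1 lower in normoxia, and 7 higher and 1 lower in hypoxia, with medians of 0.16 and 0.20. Sp100, a nuclear body protein, gave 1.64 ± 0.26 and 0.99 ± 0.24 (edgeR adjusted p of 0.000977 and 0.00998). Ly6a, a surface protein of endothelium and other cells, gave 2.36 ± 0.57 and 1.84 ± 0.52 (adjusted p of 0.0131 and 0.0213). The hypoxic value of Ly6a was 0.97 without knockout hypoxia 1 to 3 (adjusted p = 0.229), and it also lost its call without control hypoxia 3, 4 or 6. Slfn5 passed at both levels, at 1.41 ± 0.39 and 1.17 ± 0.36 (adjusted p of 0.0255 and 0.0303), and lost its call without knockout normoxia 1 or 3 or control normoxia 1 or 3 in normoxia, and without knockout hypoxia 2, 3 or 6 or control hypoxia 4 or 6 in hypoxia (adjusted p between 0.051 and 0.0894). In normoxia Ifitm3 gave 0.59 ± 0.16, Tor3a 0.39 ± 0.12 and Trim21 -0.45 ± 0.13 (adjusted p of 0.0245, 0.0494 and 0.0297). Ifitm3 lost its call without knockout normoxia 3 or control normoxia 1, 2 or 3, and Trim21 without knockout normoxia 1, 3 or 4 or control normoxia 1, 2 or 3. Tor3a lost its call without any 1 of control normoxia 1 to 4, knockout normoxia 3 or 4, control hypoxia 4 or 6 or knockout hypoxia 3, 4, 6 or 7.

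In hypoxia Lgals9, which encodes a galectin, gave 1.34 ± 0.27 (edgeR adjusted p = 0.00253). Isg20, an exonuclease, gave 0.69 ± 0.21 (adjusted p = 0.0298), and lost its call without knockout hypoxia 6 or control hypoxia 4, 5 or 6. Ifitm2, which hinders viral entry, was lower at -0.42 ± 0.10 (adjusted p = 0.00826), and -0.31 without control hypoxia 5 (adjusted p = 0.0520).

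Of 5 tested genes of the DNA-binding p200 family, 1 was higher in normoxia and 3 in hypoxia, with medians of 0.80 and 1.03. Ifi209 gave 2.45 ± 0.72 in normoxia (edgeR adjusted p = 0.0333) and lost its call without knockout normoxia 3 or any 1 of the 4 normoxic controls, with adjusted p between 0.0583 and 0.147. In hypoxia Mndal gave 1.33 ± 0.36, Ifi203 1.03 ± 0.32 and Ifi204 1.19 ± 0.39 (adjusted p of 0.0175, 0.0294 and 0.0380). Mndal lost its call without control hypoxia 4 or 5, Ifi203 without knockout hypoxia 6 or control hypoxia 3, 5 or 6, and Ifi204 without any 1 of control hypoxia 3 to 6 or of knockout hypoxia 1, 2, 3, 4 or 6. All 3 also missed the threshold without knockout hypoxia 1 to 3 together, with adjusted p of 0.165, 0.0568 and 0.171.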

How the data were processed

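RNA of 19 brain libraries was analysed; control hypoxia replicates 1 and 2 are named in the labels and not analysed here. Gene-level counts, in whole numbers, were deposited by the authors, from reads aligned with HISAT2 to GRCm39 per the submitters' processing notes (versions, counter and strand setting not given in the sources used here). Among counts from 2 to 21, 65.9% were even. The deposited RPKM values are these counts over library total and gene length, as recomputed from the file, and were used only for levels between genes. Of 55416 gene IDs, 52083 had a symbol.

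Counts were fitted with edgeR 4.0.16 in R 4.3.3 (TMM, filterByExpr, robust quasi-likelihood): 1 model of 4 groups and 5 contrasts, with p-values adjusted by Benjamini-Hochberg over 19854 genes and called under 0.05. Standard errors are the log2 fold change over the square root of F. Nothing in the labels ties a library to its own animal, and the p-values therefore reflect only the variation among the libraries, which may be technical. Members and lists were chosen with earlier results of these data known. Called members are given per library; of each list, genes called in a knockout comparison are named, at most 6 a comparison. Where a gene had no count, 3 counts were taken as the limit, which covers counting error only. That limit assumes independent counts, which the share of even counts leaves uncertain, so it may be too low. The script was tested on simulated data.

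Alternatives were DESeq2 1.42.0, RLE scaling, no filter, at least 10 counts in 4 libraries, a fit of the compared groups, a replicate block, and each library left out. Added after seeing the data were leaving out knockout hypoxia 1 to 3, Y-linked RNA as a covariate, and the shared-number libraries without a block. Replicate numbers were taken to pair the hypoxic knockouts and controls, because their deviations correlated at 0.17 to 0.38 in all 4 pairs. This comes from the data, not the labels, and libraries of unlike number were not compared. Calls in the text are from the fit without pairs, with the block as an alternative. Block results of the list genes are not given.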

Additional observations from a re-analysis of the deposited data

Results flagged for a closer look

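Among 60 groups of 4 to 7 libraries tested for a library far from the others, 2 stood out, where chance gives about 1 in 20. Ifngr1 in knockout normoxia replicate 4 was 19.1 CPM, while the other 3 libraries were each at 15.1 CPM. Xaf1 in control hypoxia replicate 3 was 5.82 CPM, while the others lay between 2.43 and 2.54 CPM.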

How the results depend on the processing

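Of 20 called pairs of gene and comparison, all 20 kept their direction in the 28 alternatives run, 5 kept the call in each, and 15 lost it in at least 1. In normoxia the count of knockout-called members was 6, and it was 8 with DESeq2, 3 in a fit of the compared groups or of the shared-number libraries, 2 with the replicate block, and 3 to 8 with a library left out. Over all genes 12.2% passed, 16.9% with DESeq2, 11.1% in a fit of the compared groups or of the shared-number libraries, and 9.12% with the block. In hypoxia it was 10, 15 with DESeq2, 8 with no low-count filter or without knockout hypoxia 1 to 3, 7 with the replicate block or in the same libraries without it, and 7 to 12 with a library left out. The shares of all genes were 19.7%, 24.6% with DESeq2, 9.09% with no low-count filter and 8.7% without knockout hypoxia 1 to 3. They were 13.9% with the block and 8.71% in the same libraries without it. Hypoxia in controls gave 1 member, 2 with DESeq2 or the compared groups alone, 0 with the replicate block (edgeR), and 0 to 2 with a library left out. Of all genes 0.0856% passed, 0.705% with DESeq2, 0.188% with the compared groups alone and 0.234% with the block. Hypoxia in knockouts gave 3, 6 with DESeq2, 1 with the compared groups alone, 0 with the replicate block or in the same libraries without it, and 1 to 5 with a library left out. All-gene shares were 12.5%, 16.7% with DESeq2, 5.09% with the compared groups alone, 0.00525% with the block and 0.352% without it. The interaction stayed at 0 throughout. Outside the hypoxic knockout comparison the replicate numbers were not taken to pair libraries, since deviations correlated at -0.076 to 0.18 in normoxia, -0.015 to 0.065 over 2 pairs of controls, and -0.39 to 0.29 in knockouts. The cause of the shifts in count was not tested; the block and the fits of fewer libraries also have fewer degrees of freedom.

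Over all genes, leaving out a library gave 1122 to 3149 calls in normoxia (2415 with all), 2143 to 4744 in hypoxia (3917), 3 to 39 for hypoxia in controls (17) and 1480 to 2715 in knockouts (2489). Without knockout hypoxia 1 to 3 these were 1696 in hypoxia, 37 in controls and 1394 in knockouts. DESeq2 gave 140 for hypoxia in controls and 108 for the interaction, against 2 with edgeR. The replicate block gave 44 in controls and 1 in knockouts. Depth limits Mx1, Zbp1, Oas1a and Ifi44, which had few counts.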
